A study of Homo sapiens with 6 samples.

Results

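Nuclear transport receptors carry proteins and RNA through the nuclear pore. The 10 genes described here encode 6 alpha importins (KPNA1, KPNA2, KPNA3, KPNA4, KPNA5 and KPNA6), the beta importin KPNB1, the transportin TNPO1, the exportin XPO1 and the GTPase RAN. They were taken by gene symbol, 10 of the 61806 genes listed, and each symbol matched 1 gene. RNA came from MG63, an established human osteosarcoma cell line, in 2 groups: cells with a stable knockdown of FTO by a short hairpin (shFTO) and control cells (shNC). Each group had 3 independent biological replicates. The sources used here do not say whether a group is 1 clone or a pool, nor how many hairpins were used. FTO removes the methyl group of N6-methyladenosine (m6A) from RNA, and the comparison asks which transcripts change when FTO is reduced.

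Proteins with a classical nuclear localisation signal are bound by an alpha importin, which acts as an adaptor to KPNB1. KPNB1 takes the pair through the pore into the nucleus, where RAN in its GTP form releases the cargo. TNPO1 binds a different signal, found in hnRNP proteins, without an adaptor. XPO1 binds leucine-rich export signals together with RAN-GTP and carries proteins and some RNAs out. RAN is thus the switch that gives transport its direction.

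Levels were given as FPKM, which is reads per kilobase of exonic sequence scaled to the library total, and the whole reads behind them could be recovered. A library held between 93629 and 106245 reads, 592760 in all, so genes of low level rest on a few reads. FTO itself was listed at 0 FPKM in all 6 libraries, where a zero count allows up to 3 reads, or 1.32 to 1.5 FPKM. The labels could therefore not be checked on the targeted gene. Of 14 markers of mesenchymal and osteoblast lineage, 9 had reads, among them COL1A1, SPARC and VIM, while ALPL, BGLAP, SPP1, IBSP and SP7 were at 0. The list summed to between 80.1 and 105.9 of 100000 reads in shNC and between 106.4 and 108.4 in shFTO. These sums did not overlap between the groups, but the nearest, 105.9 and 106.4, lay close together. Of single genes, 2.9% of the 4932 tested and 5.11% of the 705 averaging 10 or more reads were higher in shFTO without overlap. The sum of this chosen list was given no test. Of the 9 genes tested, 7 had a higher and 2 a lower estimate in shFTO, with a median log2 fold change of 0.32. COL1A1 had 56 reads in shNC and 83 in shFTO, and VIM had 50 and 35. Limma called 0 of the 9. Epithelial markers had reads for 2 of 8 genes, of which KRT18 had 0 reads in shNC and 6 in shFTO (3, 0 and 3), not called in limma, and KRT8 had 1 in each group. Endothelial markers had reads for 1 of 5 genes and blood markers for 0 of 6. The part of these markers in the results below was not tested. In such bulk samples fewer cells of a type and less RNA per cell cannot be told apart.

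KPNA3 and KPNA4 form 1 subfamily of the alpha importins and were the 2 alpha importins with the most reads. Their messenger sequences are shown to let a reader see how far the 2 transcripts differ. The first 120 coding bases follow, from the principal transcripts of GENCODE release 29 on GRCh38. They span exons 1 to 3 of 17, in KPNA3 within chr13:49733041-49792506 and in KPNA4 within chr3:160535892-160565282, both on the minus strand. Capitals mark the 30 positions at which the 2 sequences differ.
KPNA3: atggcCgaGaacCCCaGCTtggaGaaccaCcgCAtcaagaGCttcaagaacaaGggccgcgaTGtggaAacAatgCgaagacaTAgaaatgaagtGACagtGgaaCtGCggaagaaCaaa
KPNA4: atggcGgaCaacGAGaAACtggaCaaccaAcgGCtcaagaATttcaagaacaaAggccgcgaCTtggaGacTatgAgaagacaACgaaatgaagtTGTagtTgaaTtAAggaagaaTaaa

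Over the whole coding sequence KPNA3 and KPNA4 were identical at 1180 of 1563 aligned bases (75.5%), with a longest identical run of 23 bases. The other subfamily, KPNA1, KPNA5 and KPNA6, had pairwise identities of 72.6%, 73.5% and 74.2%. All other pairs of alpha importins were less alike, from 55.4% for KPNA2 and KPNA5 to 59.97% for KPNA4 and KPNA5. None of the 50-base stretches of the KPNA3 transcript occurred in a transcript of another gene, and 2.73% of those of KPNA4 did. The share was 0% for KPNA1, KPNB1 and XPO1, 7.72% for TNPO1, 8.79% for KPNA6 and 9.37% for KPNA5. It was 9.53% for RAN and 17.3% for KPNA2, so by this measure the assignment of KPNA2 reads is the least certain. Only principal transcripts were searched. That of TNPO1 has 3028 bases against a deposited exonic length of 13099, and that of XPO1 4915 against 23843. Of 17 pseudogenes named after a member, 16 had no reads. The exception was RANP5, with 3 reads in shNC replicate 1 and 2 in shFTO replicate 1. The 11 listed genes that overlap the span of 1 of the 10, antisense genes included, had no reads.

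The m6A mark lies most often on the A of GGAC, and GGACT is the best-known form, so the letters GGACT were looked up on the messenger strand. The principal transcript of KPNA3 holds 4 and that of KPNA4 holds 6. They are shown in capitals with 10 bases on each side, as the letters best known for the mark that FTO removes. A match says nothing of whether the base is methylated.
KPNA3, coding, exons 13 and 14, chr13:49706153-49706275: ttgctaagggGGACTttggaacaca
KPNA3, 3′ UTR, exon 17, chr13:49701609-49701633: actatcacatGGACTgtaaatgcat
KPNA3, 3′ UTR, exon 17, chr13:49700967-49700991: aacctgttatGGACTtgaacttctg
KPNA3, 3′ UTR, exon 17, chr13:49699723-49699747: agtttcttctGGACTttccttactt
KPNA4, coding, exon 15, chr3:160508165-160508189: agtactcgatGGACTaagtaatata
KPNA4, 3′ UTR, exon 17, chr3:160499632-160499656: ctgggtataaGGACTaccttatcgt
KPNA4, 3′ UTR, exon 17, chr3:160498340-160498364: cctatgacaaGGACTcaactattta
KPNA4, 3′ UTR, exon 17, chr3:160497040-160497064: aagcaaatttGGACTgtagtgtcaa
KPNA4, 3′ UTR, exon 17, chr3:160496754-160496778: tcccaccagaGGACTgcagtactcc
KPNA4, 3′ UTR, exon 17, chr3:160495947-160495971: ccaaagtcttGGACTcagctaaaga

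GGACT occurred at 0.894 per kilobase in KPNA3 and 0.668 in KPNA4, against a median of 0.934 over 19512 protein-coding genes. The range over all 10 genes ran from 0.376 per kilobase in RAN to 1.32 in TNPO1. Within 100 bases on either side of the first base of the stop codon, 0 of the 10 transcripts held the letters. Of 17657 genes with a window of that length, 22.2% did. The nearest match to a stop codon in KPNA3 began 179 bases after its first base, and in KPNA4 264 bases before it. The principal transcripts of TNPO1 and KPNA2 have 3′ UTRs of 278 and 246 bases, so sites in longer forms were not counted for them.

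KPNA4 had by far the most reads and the highest FPKM of the 10 genes. KPNA4 (ENSG00000186432, chr3:160495007-160565571) had 609, 596 and 669 FPKM in shNC replicates 1, 2 and 3 and 653, 663 and 620 FPKM in shFTO replicates 1, 2 and 3. It was the 16th gene of the data by reads and the 57th by mean FPKM. In the same libraries the actin gene ACTB had 33.1 FPKM in shNC and 24.8 in shFTO. Whether FPKM here reflects abundance in the cells was not tested. Of the 5891 reads of the 10 genes, 87.1% came from KPNA4, and within the alpha importins 95.7% did. Its level also varied least between libraries, with a coefficient of variation of 4.83% over all 6. Counting error alone lowers this coefficient as reads increase, and KPNA4 had the most reads. Before it was drawn towards other genes in the quasi-Poisson fit described below, variance relative to counting error was 2.14 for KPNA4. It was 1.61 for KPNA3, 1.03 for KPNB1, 2.19 for TNPO1 and 3.87 for RAN, so KPNA4 was not the steadiest by that measure. Each value rests on 6 libraries, so the order of the genes is uncertain.

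The other genes fell into a middle and a low group. Over the 6 libraries KPNA3 had 78.9 ± 23.8 FPKM (SD, n = 6), TNPO1 51.9 ± 8.45, RAN 22.6 ± 12.6 and KPNB1 5.24 ± 2.07. KPNA1 had 3.96 ± 2.10 FPKM, XPO1 1.98 ± 0.654, KPNA6 1.62 ± 2.11, KPNA2 1.38 ± 1.23 and KPNA5 0.152 ± 0.372. KPNA4 stood above KPNA3 in 6 of 6 libraries with no overlap of their ranges, and so did TNPO1 above RAN. KPNA3 and TNPO1 overlapped, and KPNA3 was the higher of them in 5 of 6 libraries. RAN was above KPNB1 in each library, although their ranges over libraries overlapped. The lowest value of RAN was 6.36 FPKM and the highest of KPNB1 7.5. From KPNB1 down, every neighbouring pair overlapped, so the order of neighbours among the low genes is not resolved at this depth. KPNA5, at 0.91 FPKM or less, lay below every library of KPNB1 (1.92 or more) and KPNA1 (2.33 or more). A zero count of KPNA5 still allows up to 2.76 FPKM. The 6 genes that averaged fewer than 10 reads per library, KPNA1, KPNA2, KPNA5, KPNA6, KPNB1 and XPO1, had 94 reads together.

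The length used for FPKM bears on these levels. The deposited exonic length of XPO1 is 23843 bases and that of KPNA2 is 7365, against 11708 and 3140 bases of exonic sequence in GENCODE release 29. With the lengths of that release KPNA4 would stand at 920 FPKM, KPNA3 at 74.5, TNPO1 at 56.8 and RAN at 21.9. KPNB1 would stand at 7.03, XPO1 at 4.04, KPNA1 at 3.99, KPNA2 at 3.24, KPNA6 at 1.61 and KPNA5 at 0.155. The order of the first 5 genes was then as before, while XPO1 passed KPNA1 and KPNA2 passed KPNA6. With the lengths of the principal transcripts the order changed further up. TNPO1, whose principal transcript has 3028 bases, would stand at 225 FPKM, above KPNA3 at 74.5. XPO1 at 9.61 would pass KPNB1 at 8.79. The order of KPNA3 and TNPO1 thus depends on the length used. These lengths were tried after seeing the data. Length cancels in a ratio of reads between groups, but not fully in log2(FPKM + 1) for low genes.

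**Figure D1:**
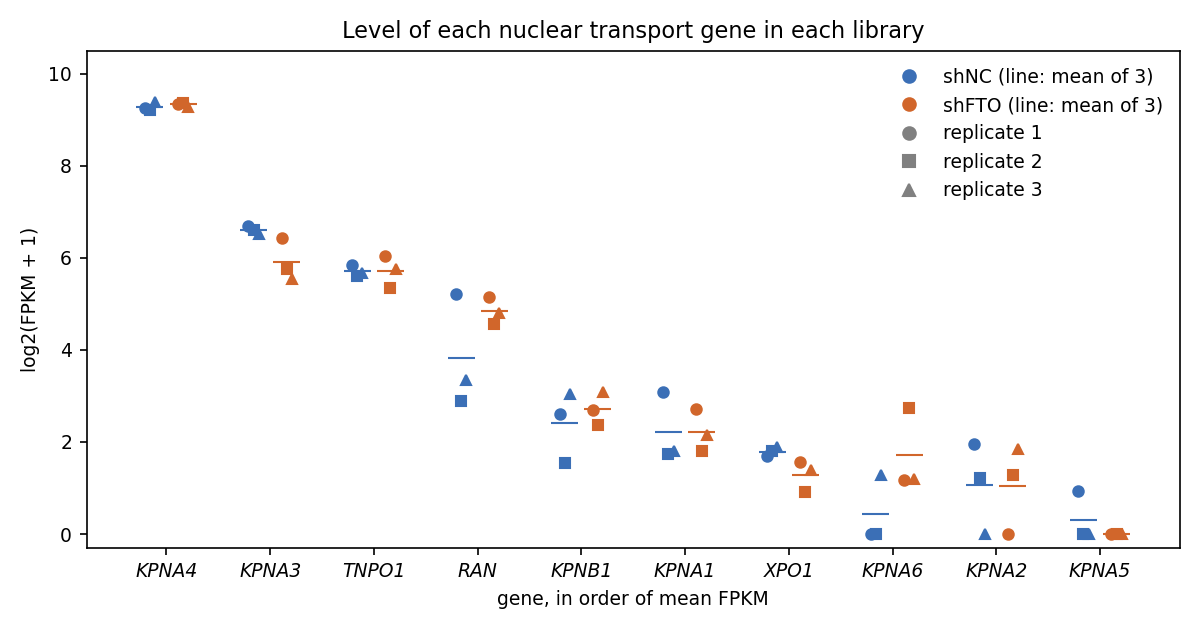
Level of each gene in each library as log2(FPKM + 1), genes ordered by mean FPKM, shNC in blue and shFTO in orange, symbols for replicates and lines for the mean of 3. KPNA4 lies above all others in every library, KPNA3 is lower in shFTO than in shNC, and from KPNB1 on neighbouring genes overlap.

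None of the 10 genes was called in shFTO against shNC. The test was limma on log2(FPKM + 1) over the 4932 genes that averaged 1 FPKM or more in a group, called at a Benjamini-Hochberg adjusted p under 0.05. It tested 9 of the 10 and called 0, against 2 of all 4932 genes (0.0406%), while 190 of the 4932 (3.85%) and 1 of the 9, KPNA3, reached an unadjusted limma p of less than 0.05. KPNA5, listed at 1 read in shNC replicate 1 and at 0 elsewhere, did not pass the filter. A quasi-Poisson fit to the recovered reads also called 0 (0%) of the 1021 genes it tested, and 54 of them (5.29%) reached an unadjusted p of less than 0.05. Of the 9 estimates 6 were positive, that is higher in shFTO, and 3 negative, with a median log2 fold change of 0.01, against 0.00 over all genes tested. The 9 passed partly through the group in which they were higher, so these counts describe only the genes that passed.

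Among the alpha importins, the adaptors for classical import signals, KPNA3 had the most negative estimate. KPNA3 (ENSG00000102753, chr13:49699320-49792682) had 103, 96.2 and 91.1 FPKM in shNC replicates 1, 2 and 3 and 84.7, 52.9 and 45.8 FPKM in shFTO replicates 1, 2 and 3. All 3 shFTO libraries lay below all 3 shNC libraries, with shFTO replicate 1 close to the controls and the other 2 well under them. These values rest on 41, 41 and 36 reads against 38, 21 and 20. Before scaling to library size, shFTO replicate 1 was thus not below every control. Of the 705 genes averaging 10 or more reads, 4.68% lay lower in shFTO without overlap, and of all 4932 tested 3.69% did. Mean levels of KPNA3 were 96.7 ± 5.95 and 61.1 ± 20.7 FPKM (SD, n = 3 per group).

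The log2 fold change of KPNA3 was -0.70 (SE 0.26, 95% interval from -1.23 to -0.18), with a limma unadjusted p of 0.01 and an adjusted p of 0.772. It thus failed the correction over all genes. In the fit to recovered reads it was -0.65 (SE 0.28, adjusted p = 0.825). Among the 705 genes averaging 10 or more reads in a library, 10 had a lower estimate. Over the alternatives tried the limma and quasi-Poisson adjusted p of KPNA3 ran from 0.443 to 0.91. Leaving out 1 library at a time gave log2 fold changes from -0.96 to -0.52, the first without shFTO replicate 1 and the second without shFTO replicate 3.

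KPNA4 differed little between the groups, with 625 ± 39.2 FPKM in shNC and 645 ± 22.5 in shFTO. Its log2 fold change was 0.05 (SE 0.10, limma adjusted p = 0.905), and the 95% interval from -0.16 to 0.26 leaves out a change of the size estimated for KPNA3. The 2 genes of the subfamily were also set against each other within each library. There were 5.23, 4.99 and 4.21 KPNA3 reads per 100 KPNA4 reads in shNC replicates 1, 2 and 3, and 4.02, 2.47 and 2.29 in shFTO replicates 1, 2 and 3. This ratio does not depend on library size. Its groups did not overlap, though the nearest values, 4.21 and 4.02, lay close together. KPNA4 varied little, so the ratio mostly repeats the KPNA3 values given above and is no separate support for them. The ratio was given no test, since the pair was chosen with its values known.

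**Figure D2:**
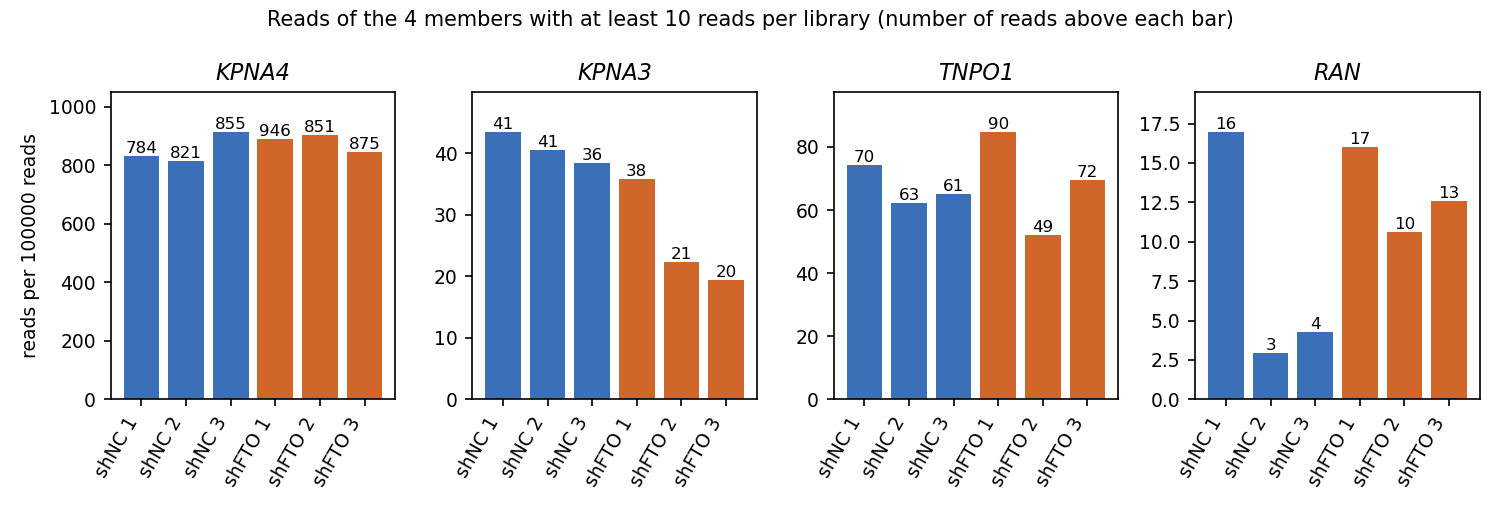
Reads per 100000 reads of KPNA4, KPNA3, TNPO1 and RAN in each library, with the number of reads above each bar, shNC in blue and shFTO in orange, each panel with its own axis from 0. KPNA3 has 36 to 41 reads in shNC, 20 and 21 reads in 2 shFTO libraries and 38 in the other, and RAN is high in shNC replicate 1 alone among the controls.

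The remaining alpha importins had too few reads for a comparison of use. KPNA1 had 6, 2 and 2 reads in shNC replicates 1, 2 and 3 and 5, 2 and 3 in the shFTO replicates (log2 fold change 0.01, SE 0.89). KPNA2, often linked to dividing cells, had 2, 1 and 0 reads against 0, 1 and 2 (log2 fold change -0.01, SE 1.05). KPNA6 had 0, 0 and 1 read against 1, 4 and 1, or 0.477 ± 0.826 and 2.75 ± 2.55 FPKM. Per library read, KPNA6 was at a ratio of 5.71, and the exact 95% interval of 0.692 to 263 covers counting error only. The interval includes no change. KPNA5 had 1 read in shNC and 0 in shFTO, so no fold is given.

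The 2 import receptors showed no difference that the test could separate from 0. TNPO1 (ENSG00000083312, chr5:72816312-72916733), which imports hnRNP proteins, had 56.6, 47.6 and 49.7 FPKM in shNC replicates 1, 2 and 3. In shFTO replicates 1, 2 and 3 it had 64.7, 39.8 and 53.1 FPKM, so the highest and the lowest value were both in shFTO. Its log2 fold change was 0.01 (SE 0.29, limma adjusted p = 1), with a 95% interval from -0.58 to 0.60 that excludes a 2-fold change in either direction. The estimate is so near 0 that its sign turned under median-of-ratios scaling. KPNB1 (ENSG00000108424, chr17:47649476-47685505) had 5, 2 and 7 reads in shNC and 6, 4 and 8 in shFTO, with a log2 fold change of 0.31 (SE 0.80). The interval for KPNB1, from -1.30 to 1.92, includes more than 2-fold in both directions.

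XPO1 (ENSG00000082898, chr2:61476032-61538741), the main export receptor for proteins, had 2.22, 2.49 and 2.69 FPKM in shNC and 1.97, 0.89 and 1.62 FPKM in shFTO replicates 1, 2 and 3. The groups did not overlap, but the values stand for 5, 6 and 6 reads against 5, 2 and 4. Per library read, XPO1 was at a ratio of 0.615, with exact 95% bounds of 0.261 and 1.39 for counting error, and its limma log2 fold change was -0.50 (SE 1.01, adjusted p = 0.897). KPNA3 and XPO1 were 2 of the 9 tested genes with groups that did not overlap and lower values in shFTO. Over all 4932 tested genes 3.69% did so, and of the 705 better-read genes 4.68% did. No member lay higher in shFTO without overlap, where the share was 2.9% of all tested genes and 5.11% of the 705. With 9 genes, 1 of them on 28 reads, these counts are a description.

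RAN (ENSG00000132341, chr12:130872037-130877678), the GTPase that drives both directions, had 36.3, 6.36 and 9.15 FPKM in shNC and 34.3, 22.8 and 26.9 FPKM in shFTO replicates 1, 2 and 3. The highest value of all was in a control, shNC replicate 1, so the groups overlapped, and the other 2 controls lay below every shFTO library. In reads these were 16, 3 and 4 against 17, 10 and 13. The log2 fold change was 1.02 (SE 0.51, limma adjusted p = 0.772), with a 95% interval from -0.02 to 2.06, and 0.73 (SE 0.49, adjusted p = 0.926) in the quasi-Poisson fit to reads. Of the 705 better-read genes 2 had a higher limma estimate. Single controls set this value: without shNC replicate 1 it was 1.73 (limma adjusted p = 0.525), and without shNC replicate 2 it was 0.56 (adjusted p = 0.785). The only pseudogene reads, those of RANP5, were in the 2 libraries with the most RAN reads, shNC replicate 1 and shFTO replicate 1. Their part in the RAN values was not tested.

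**Figure D3:**
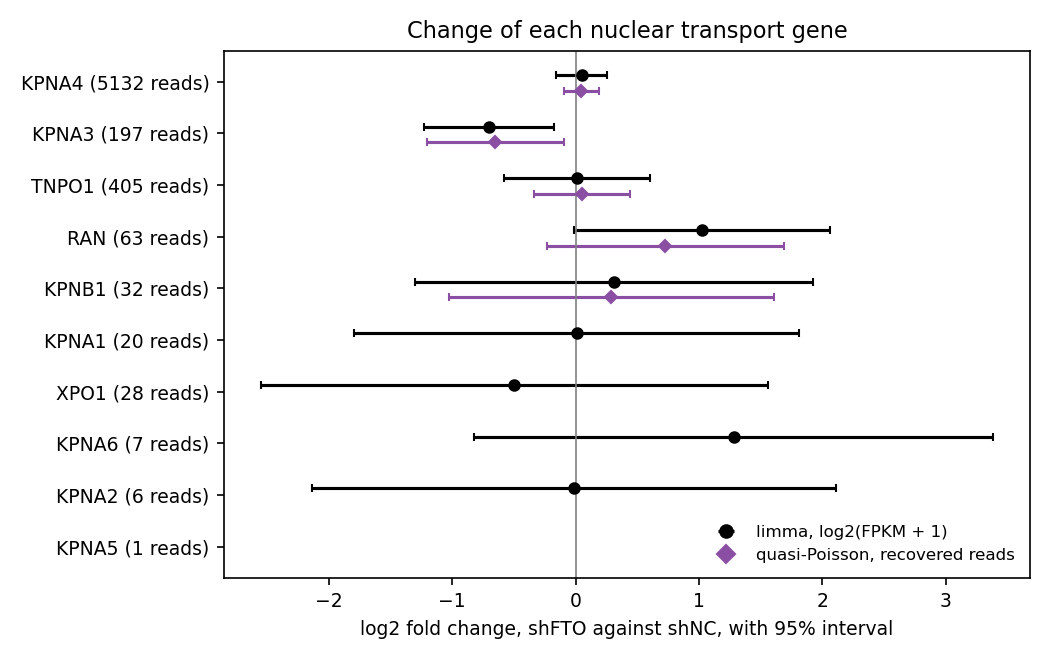
Log2 fold change of shFTO against shNC with its 95% interval for each gene, in the order of mean FPKM, from limma (black circles) and from the quasi-Poisson fit (purple diamonds, genes with at least 30 reads). KPNA4 has the narrowest interval, KPNA3 is the one gene whose limma interval before adjustment leaves out 0, and KPNA5 with 1 read was not tested.

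Summed, the 10 genes held 985 ± 54.2 of 100000 reads in shNC and 1004 ± 39.1 in shFTO, or 132 ± 20 and 123 ± 27.1 without KPNA4. In both cases the difference was smaller than the spread between libraries of a group.

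The rest of the transport pathway was read from 5 lists of 75 genes in all. Reads were found for 53 of them, 36 passed the filter, and limma called 0 in either direction, against the 0.0406% called over all genes. Of these estimates 22 were positive and 14 negative, with a median log2 fold change of 0.14, but just 5 of the 75 averaged 10 or more reads per library. Groups did not overlap for 3 of the 36 with lower and 2 with higher values in shFTO, where the shares over all 4932 tested genes were 3.69% and 2.9%. The lower ones were IPO13, NUP98 and AHCTF1 and the higher ones IPO5 and RANBP2. NUP98, AHCTF1 and IPO5 are named here after their values were seen.

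Among 11 other importins 7 had reads, and 0 of 6 tested were called. IPO7, an import receptor for ribosomal proteins and histones, had 16, 9 and 11 reads in shNC and 22, 9 and 11 in shFTO (log2 fold change 0.08, SE 0.47). TNPO2, the close relative of TNPO1, had 8.31 ± 3.45 FPKM in the controls and 9.64 ± 5.10 after knockdown, below TNPO1 in both. IPO13, which works in both directions, had 7, 6 and 5 reads in shNC and 3, 3 and 2 in shFTO. Its log2 fold change of -1.10 (SE 0.63, limma adjusted p = 0.772) was not called. Reads were found for 6 of 7 other exportins, and none of the 5 tested was called. The most-read were XPO4 and XPOT, the exportin of transfer RNA, with 14 and 15 reads each, and XPO7 with 10 and 17.

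The RAN cycle list had 6 of 8 genes with reads and no call among 5 tested. RANBP2, the large pore protein that binds RAN on the cytoplasmic face, had 7, 5 and 4 reads in shNC and 9, 7 and 10 in shFTO. Its log2 fold change was 0.46 (SE 0.97, limma adjusted p = 0.901). NUTF2, which returns RAN to the nucleus, had 3 and 4 reads, and RANBP1, a cofactor of RAN, had 2 and 4.

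The nucleoporins, which build the pore, had reads for 25 of 31 genes and 0 calls among 12 tested. NUP153, of the nuclear basket, was the most-read nucleoporin, with 433 reads. Its control level was 126 ± 33.8 FPKM and its knockdown level 114 ± 12.1, a log2 difference of -0.11 (SE 0.22) with an adjusted p of 0.891 in limma. NUP58, of the central channel, had 18, 14 and 16 reads in shNC and 22, 3 and 27 in shFTO, so shFTO replicate 2 stood apart from its group. NDC1, a membrane anchor of the pore, had 17 and 27 reads. The messenger RNA export list had 9 of 18 genes with reads and no call among 8 tested. CHTOP, a subunit of the export complex, was at 251 ± 43.4 FPKM in the controls and 225 ± 19.7 after knockdown, from 793 reads, a log2 difference of -0.15 (SE 0.16). THOC2, of the THO complex, had 54 reads in each group, and THOC1 of the same complex had 6 and 10.

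**Figure D4:**
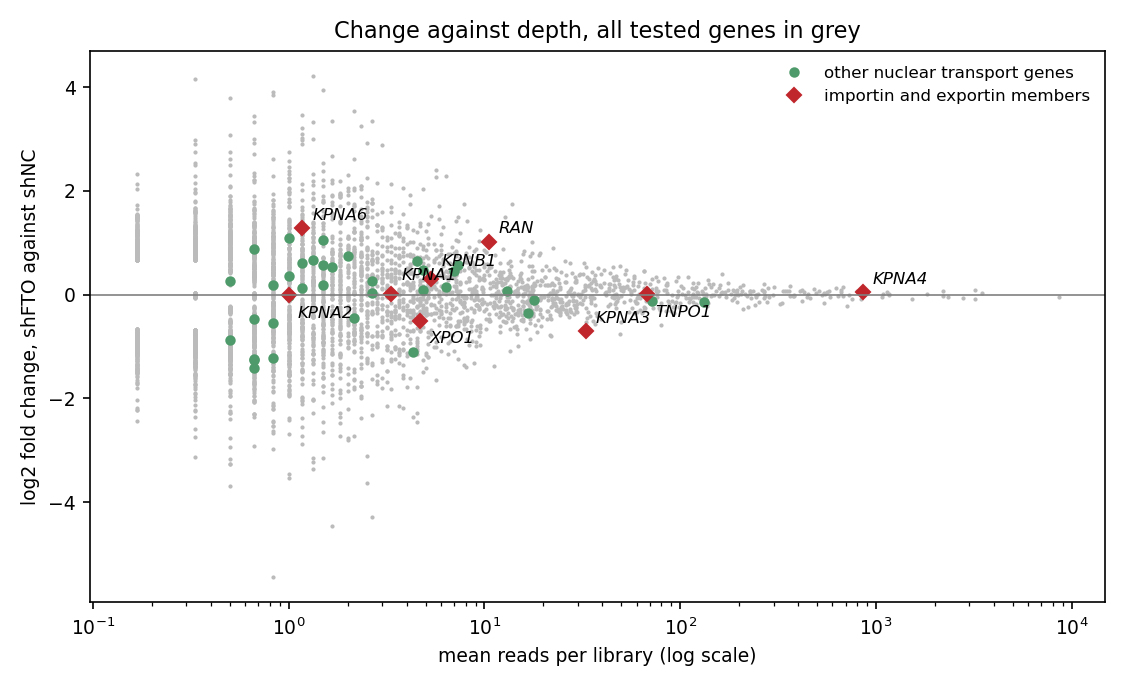
Log2 fold change of shFTO against shNC by limma for each tested gene against its mean reads per library on a log axis, all genes in grey, other transport genes in green and the importin and exportin genes as red diamonds. Estimates spread less as reads increase, KPNA4 lies near 0 at 855 reads per library, and KPNA3 and RAN lie at the edge of the cloud for their depth.

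The genes whose levels followed KPNA4 most closely over the 6 libraries were DYRK1A, a protein kinase gene (Pearson r = 0.947), DHX15, an RNA helicase gene (r = 0.878), and ZFC3H1, of nuclear RNA decay (r = 0.827). They are the highest of 149 genes averaging 100 or more reads in a library. With 6 points and a KPNA4 level that varied by 4.83%, and with library totals shared by every gene, these values are a description of 6 libraries and carry no test.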

How the data were processed

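Poly(A) RNA of 3 shNC and 3 shFTO libraries was sequenced with strand kept, per the labels. The submitters' processing notes name DESeq2 1.50.2, StringTie 1.3.3b, HTSeq 0.6.1, HISAT2 2.2.1 and FastQC 0.10.1, and build GRCh38. The sources used here give neither the order of steps nor the strand setting of counting. The authors deposited FPKM per gene rounded to 2 decimals, per the file headers, with exonic length and position. Columns were matched to samples by NC or sh and the replicate number.

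Library totals between 20000 and 200000 were searched for whole reads. With the best totals, 100% of nonzero values lay within 0.05 of a whole read. Where no read was seen, up to 3 reads were allowed for. Intervals of read ratios are exact at 95% and, like this limit, cover counting error only.

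The main test was limma 3.58.1 (R 4.3.3; trend, robust) on log2(FPKM + 1), with group as the only term and genes averaging 1 FPKM or more in a group. Such fold changes understate the change of low genes. Alternatives were a replicate block, a pseudocount of 0.1, a filter on an average of 10 reads per library or none, median-of-ratios scaling, a quasi-Poisson fit to genes with at least 30 reads, and each library left out in turn. The fits were tested on simulated data at these depths, with a spread set in advance, which was lower than that of the real libraries. Between pairs of real libraries variance relative to counting error ran from 1.73 to 2.03, so the shares that follow may be too high. Of 2-fold changes in genes averaging 10 or more reads per library, limma found 42.3% and the quasi-Poisson fit 76%. At 100 or more reads they found 96.4% and 100%. A gene of few reads that was not called may therefore still have changed. For 2-fold changes in these 2 read ranges, limma made 6.67 and 5 false calls per simulation on average. The quasi-Poisson fit made 8 and 3.33. Transcripts came from GENCODE release 29 (best principal rank, then longest coding sequence), and coding sequences were aligned with Biopython 1.88.

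The 10 genes, the lists and the tests were chosen with earlier results of these data known. All 10 genes were named, and of each list the 3 with the most reads, any called gene, pseudogenes of members and the 3 genes most like the most-read member. IPO5, NUP98, AHCTF1 and the KPNA3 to KPNA4 ratio were named after their values were seen.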

Additional observations from a re-analysis of the deposited data

How the results depend on the processing

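Over 12 alternatives the 9 tested members gave 99 values, and none was called in limma or in the quasi-Poisson fit, with a smallest adjusted p of 0.443. Of the 99 values 86 kept their direction and 13 turned, all for KPNA1, KPNA2, KPNB1 and TNPO1, while KPNA3, KPNA4, KPNA6, XPO1 and RAN kept theirs in every alternative in which they were tested. Under median-of-ratios scaling, which moved the median of all genes by 0.00244, KPNA1 was at -0.00134 and TNPO1 at -0.00373 (log2). Without 1 library the range was -0.24 to 0.45 for KPNA1, -0.54 to 0.51 for KPNA2, -0.12 to 0.63 for KPNB1 and -0.15 to 0.19 for TNPO1. The count of called genes, 2 as reported, was 7 with a pseudocount of 0.1, 9 with no filter, 0 among genes averaging 10 or more reads per library, 0 in the quasi-Poisson fit and from 2 to 9 without 1 library. With the replicate block it was 17, and members called stayed at 0. Over 705 genes, the deviations of libraries of the same replicate number correlated at -0.00292, 0.0392 and -0.0116. Counting error at this depth can hide a pairing, so these values do not settle whether the numbers pair libraries. The share of reads held by the members, shFTO over shNC, was 1.02 as reported, 0.934 without KPNA4 and from 0.992 to 1.05 without 1 library. Depth limits the 6 members averaging under 10 reads per library, whose intervals include more than 2-fold changes where tested.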

Other observations

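The subfamily of KPNA1, KPNA5 and KPNA6 shares places of GGACT in its coding sequences. KPNA1 and KPNA5 each hold the letters 310 bases before the stop codon, and KPNA5 and KPNA6 each hold them at 536 and 279 bases before it. KPNA3 and KPNA4 share no such distance, with coding matches 424 and 264 bases before their stop codons. The 3′ UTR makes up 84.4% of the principal transcript of KPNA5, 79.2% of KPNA4, 76.9% of KPNA6, 73.7% of KPNA1, 55.7% of KPNA3 and 10.02% of KPNA2. These are properties of the reference and say nothing of the libraries.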
